A study of Mus musculus with 8 samples.

Results

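The miR-26 family guides are the 2 mature miRNAs miR-26a-5p (mmu-miR-26a-5p) and miR-26b-5p (mmu-miR-26b-5p), the strands of the miR-26 hairpins that are loaded into Argonaute. They were taken by name from a table of 1978 mouse mature miRNAs, of which 180 passed the filter on low counts (at least 1 read in 2 or more cell libraries and in 2 or more EV libraries), and both members passed it. The libraries are small RNA-seq of 3A cells, a nontumorigenic line of murine hepatocytes, and of the extracellular vesicles (EVs) in the medium of these cells, collected after 72 h in serum depleted of EVs and concentrated by ultracentrifugation. All cells had been infected with a pSUPER retro puro retrovirus and selected with puromycin, and carried either a control shRNA (shCTR) or an shRNA against PCBP2 (shPCBP2), an RNA-binding protein. This gave 4 groups of 2 libraries each (cell shCTR, EV shCTR, cell shPCBP2 and EV shPCBP2), and each RNA sample received cel-miR-39, a nematode miRNA, as a spike-in.

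miRNAs of the miR-26 family are broadly expressed and are abundant in liver. They lie in introns of the Ctdsp genes, which code for small phosphatases that act on the C-terminal domain of RNA polymerase II and on RB, and they repress regulators of the cell cycle and of chromatin, such as cyclins and the histone methyltransferase EZH2. A guide finds its target mRNAs mainly through its seed, and the opposite arm of the hairpin, the passenger, is mostly degraded.

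The guides are shown first, because they differ at few positions and share their seed, given in capitals (bases 2 to 8 from the 5′ end, RefSeq sequences on GRCm38.p6).
miR-26a-5p: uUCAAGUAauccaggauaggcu
miR-26b-5p: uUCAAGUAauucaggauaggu
miR-26a-5p has 22 bases and miR-26b-5p has 21. Over the 21 shared positions, counted from the 5′ end, 19 were identical, and the differences from miR-26a-5p to miR-26b-5p were C11U and C21U, both outside the seed. Among the 1679 mature sequences of the RefSeq table, only these 2 miRNAs had this seed. Reads that end before position 21 separate the members by position 11 alone, and how the aligner placed such reads was not examined.

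miR-26a-5p is made from a pair of hairpins, and its table row cannot tell them apart. Mir26a-1 lies at chr9:119031796-119031885 on the plus strand, in intron 5 of Ctdspl (transcript Ctdspl-201, 8 exons). Mir26a-2 lies at chr10:126995530-126995613 on the plus strand, in intron 5 of Ctdsp2 (transcript Ctdsp2-202, 8 exons). miR-26b-5p comes from Mir26b alone, at chr1:74394310-74394394 on the plus strand, in intron 4 of Ctdsp1 (transcript Ctdsp1-201, 7 exons). The hairpins are printed with the guide (first) and the passenger (second) in capitals, to show which arms the counts below refer to.
Mir26a-1: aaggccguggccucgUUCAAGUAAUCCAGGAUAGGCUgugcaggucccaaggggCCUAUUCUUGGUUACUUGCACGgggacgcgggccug
Mir26a-2: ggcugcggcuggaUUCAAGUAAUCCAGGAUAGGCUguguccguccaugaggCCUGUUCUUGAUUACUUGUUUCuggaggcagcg
Mir26b: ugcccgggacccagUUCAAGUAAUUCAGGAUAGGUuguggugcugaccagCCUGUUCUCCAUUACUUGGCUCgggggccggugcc

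The letters AUUA and AUUG, the core of the motif that the study examined for PCBP2 binding, were searched on the strand of each mature miRNA. An extended form of the motif, which the study also scanned, was not searched here. Neither string occurs in miR-26a-5p or miR-26b-5p, whereas AUUA begins at base 11 of the passengers miR-26a-2-3p and miR-26b-3p and is missing from miR-26a-1-3p. Their sequences are shown with this string in capitals.
miR-26a-1-3p: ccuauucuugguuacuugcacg
miR-26a-2-3p: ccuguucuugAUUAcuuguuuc
miR-26b-3p: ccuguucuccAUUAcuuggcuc
AUUA was present in 42 of all 1679 mature sequences (2.50%) and in 0 of the 156 tested miRNAs with a sequence, while AUUG was present in 114 (6.79%) and 25 (16.0%). A letter match describes the sequence only and does not show binding. The study tested miR-26b-3p and reports that PCBP2 bound it, by RNA pull-down and by immunoprecipitation after UV cross-linking. It reports impaired binding when a second motif of miR-26b-3p, hEXO, was mutated.

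The libraries held 26391248 to 38166798 counts. The spike-in took 57.4% to 66.9% of them in cells and 97.6% to 98.4% in EVs, which left 8745848 to 12732173 mouse miRNA counts in cells and 503070 to 687592 in EVs. Of the hepatocyte miRNAs fixed as markers, miR-194-5p had 218474 to 342726 counts in cells, miR-192-5p had 10976 to 20510 and miR-122-5p, which is abundant in hepatocytes of the liver, only 356 to 485. In EVs these markers went different ways, with more miR-122-5p counts than in cells (795 to 2327) and fewer of miR-194-5p (3784 to 5454). The EV counts of miR-192-5p were 1058 and 62 for shCTR against 0 and 0 for shPCBP2. Relative to the spike-in, this EV difference was called (adjusted p = 0.0333 over the 180 tested miRNAs, edgeR's quasi-likelihood test). The log2 change of its EV/cell ratio was -11.4, a size that rests on the 0 counts, and was not called (adjusted p = 0.0917, by edgeR). The shCTR counts lay far apart, and a 0 could stand for a low count if such counts were removed from EV libraries. The study reports, by RT-qPCR, that PCBP2 silencing released loading into EVs for a set of miRNAs that includes this marker. The 4 erythroid markers (miR-451a, miR-144-3p, miR-486a-5p, miR-486b-5p) together made up at most 0.00317% of the mouse miRNA counts in cells, with miR-451a and miR-144-3p at 0 counts in every cell library, and 9.63% to 11.5% in EVs. Most of this EV share came from miR-486a-5p (26618 to 34143 counts) and miR-486b-5p (26246 to 33508), whose counts were close in every library. Whether the same reads entered both rows was not tested, so the summed share may count reads more than once. The 4 leukocyte markers (miR-142a-5p, miR-142a-3p, miR-223-3p, miR-150-5p) made up at most 0.000707% in cells, with both miR-142a arms at 0 counts, and 1.37% to 1.70% in EVs. The blood cell markers were higher in the EV libraries, by share and per spike-in read. The part of any of these markers in the EV/cell and shRNA values below was not tested.

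In cells, both guides were among the abundant miRNAs. miR-26a-5p had 152526 and 155016 counts in cell shCTR, and 98220 and 149337 in cell shPCBP2. miR-26b-5p had 105091 and 100141 counts in cell shCTR, and 63335 and 96858 in cell shPCBP2. For each guide, replicate 1 of cell shPCBP2 had the lowest count of the cell libraries, and that library also had the fewest mouse miRNA counts. miR-26a-5p held rank 23 in all 4 cell libraries, and miR-26b-5p rank 24 to 26.

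EV counts were lower, in libraries with far fewer mouse miRNA counts. The EV counts of miR-26a-5p were 15339 and 11702 for shCTR against 13202 and 11326 for shPCBP2. Those of miR-26b-5p were 10607 and 9125 for shCTR against 7666 and 7712 for shPCBP2. Although the counts were lower, the guides stood higher in the order of EV miRNAs, with rank 11 to 13 for miR-26a-5p and 16 to 18 for miR-26b-5p. With counts of this size, counting error is small, and the spread between libraries sets the precision.

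The level relative to the spike-in is the count per 1000000 cel-miR-39-3p reads of the same library. It refers to the RNA sample that received the spike-in, and not to a number of cells or vesicles. The miR-26a-5p level in cells was 8558.5 and 9852 for shCTR against 5566 and 8381 for shPCBP2, and in EVs it was 552 and 449.5 for shCTR against 352 and 372 for shPCBP2. The miR-26b-5p level in cells was 5897 and 6364.5 for shCTR against 3589 and 5436 for shPCBP2, and in EVs it was 382 and 351 for shCTR against 204 and 254 for shPCBP2. Thus each guide was highest in shCTR cells, then in shPCBP2 cells, then in shCTR EVs and lowest in shPCBP2 EVs, with no overlap between any neighbours, although the shCTR and shPCBP2 groups of a compartment did not differ by the adjusted test given further on. Taken separately, the steps of this order were frequent in the table. In cells, 66.7% of the tested miRNAs were lower in both shPCBP2 libraries than in both shCTR libraries, and in EVs 42.2% were. Every EV library was below every cell library for 78.3%. The share of miRNAs with the whole order was not counted. miR-26a-5p was above miR-26b-5p in all 8 libraries. The mean level of miR-26a-5p in cells was 9205 ± 915 (SD, n = 2) for shCTR and 6974 ± 1990 for shPCBP2, and in EVs 501 ± 72.8 and 362 ± 14.8. For miR-26b-5p these means were 6131 ± 331 and 4512.5 ± 1306 in cells, and 366 ± 22.3 and 229 ± 35.0 in EVs.

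**Figure D1:**
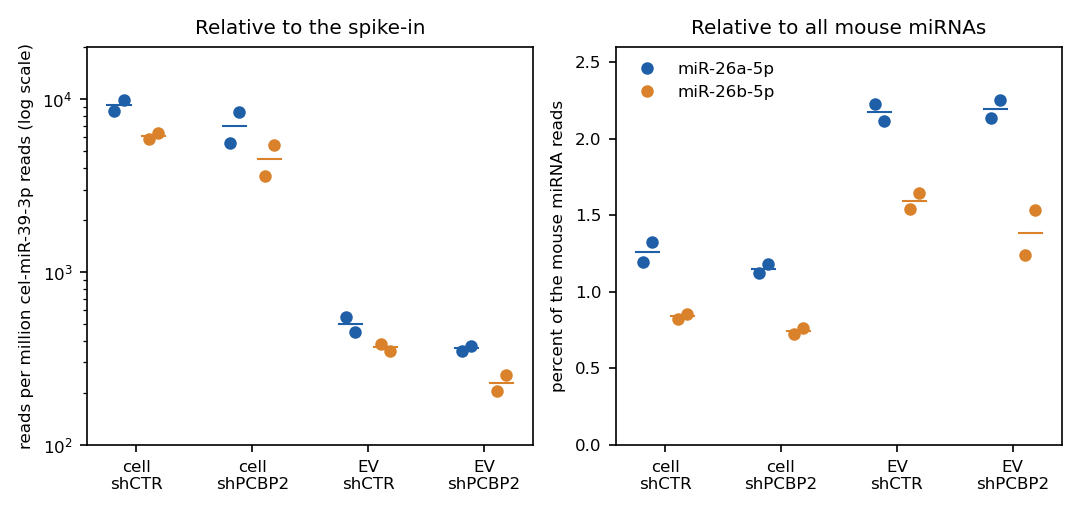
Levels of miR-26a-5p (blue) and miR-26b-5p (orange) in the 4 groups, with a point for each library and a line at the mean of the 2 libraries. Left, the level per spike-in read (scaled as in the text) on a log axis, where every EV library lies below every cell library. Right, percent of the mouse miRNA counts on an axis from 0, where every EV library lies above every cell library.

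The compartments can also be compared by share, the percent of all mouse miRNA counts of a library. The miR-26a-5p share in cells was 1.20% and 1.33% for shCTR against 1.12% and 1.18% for shPCBP2, and in EVs 2.23% and 2.11% against 2.13% and 2.25%. The miR-26b-5p share in cells was 0.825% and 0.856% for shCTR against 0.724% and 0.767% for shPCBP2, and in EVs 1.54% and 1.65% against 1.24% and 1.53%. For each guide, all EV shares were above all cell shares. The exact binomial 95% intervals of these shares reached at most 0.00699 percentage points to either side in cells and 0.0411 in EVs, and cover counting error only. Together the guides made up 1.85% to 2.18% of the mouse miRNA counts in cells and 3.37% to 3.78% in EVs.

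The first comparison asked how the guides were partitioned between cells and EVs. Relative to the spike-in, miR-26a-5p was 18.4-fold lower in EVs than in cells in shCTR (95% interval 11.7 to 28.7), a log2 ratio of -4.20 with a standard error of 0.26. By edgeR's quasi-likelihood test, with p-values adjusted by Benjamini-Hochberg over all 180 tested miRNAs, this gave an adjusted p of 1.72e-05. miR-26b-5p was 16.7-fold lower (10.7 to 26.2), a log2 ratio of -4.07 (standard error 0.26, adjusted p = 1.93e-05, by edgeR). In shPCBP2, the log2 ratios were -4.27 and -4.30 (standard errors 0.27 and 0.27, adjusted p = 1.52e-05 for each, by edgeR). A lower level in EVs was the common outcome, as 59.4% of the tested miRNAs in shCTR and 60% in shPCBP2 were called lower in EVs, and 78.3% had every EV library below every cell library. The guides lay above the median log2 ratio of all tested miRNAs, which was -4.93 in shCTR and -4.90 in shPCBP2. They held rank 68 and 64 of 180 from the highest ratio in shCTR, and rank 76 and 77 in shPCBP2, between the quartiles of the tested miRNAs.

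**Figure D2:**
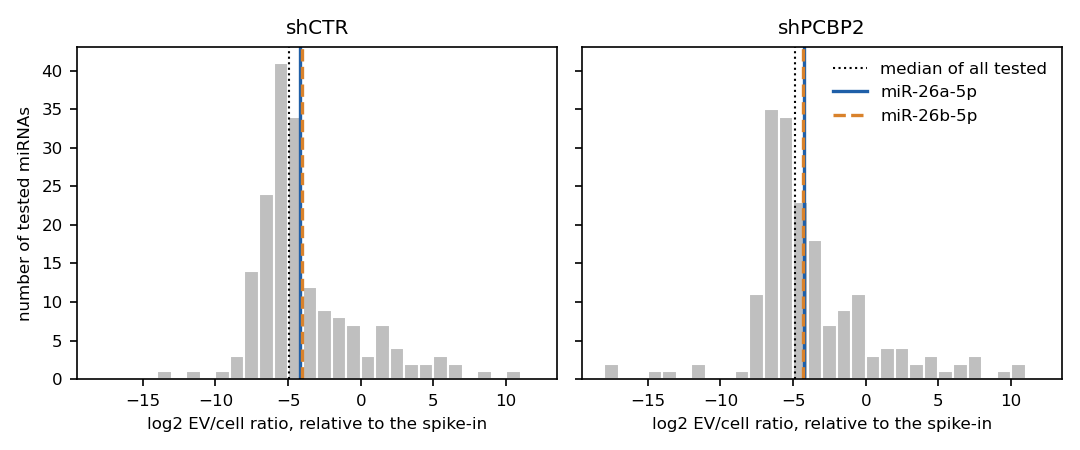
Number of tested miRNAs (y axis) by log2 EV/cell ratio relative to the spike-in (x axis, bins of width 1) in shCTR (left) and shPCBP2 (right). The lines of miR-26a-5p and miR-26b-5p lie between -4.30 and -4.07, to the right of the dotted median of all 180 tested miRNAs.

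The direction of this difference depends on the scaling. When the library size was the total mouse miRNA count, the log2 EV/cell ratio became 0.78 for miR-26a-5p and 0.92 for miR-26b-5p in shCTR (adjusted p = 0.000514 and 0.00101, edgeR's quasi-likelihood test), and 0.93 and 0.89 in shPCBP2 (adjusted p = 0.000237 and 0.000964, by edgeR). Under this scaling, 23.9% of the tested miRNAs in shCTR and 30% in shPCBP2 were called higher in EVs. By share, every EV library was above every cell library for both guides, as for 30.6% of the tested miRNAs. EV libraries therefore held fewer miR-26 reads per spike-in read, and more miR-26 reads per mouse miRNA read.

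The second comparison asked whether PCBP2 silencing changed this partition. No change of the EV/cell ratio was detected for either guide. For miR-26a-5p, the log2 ratio in shPCBP2 minus that in shCTR was -0.07 (standard error 0.33, 95% interval -0.87 to 0.73, adjusted p = 0.992, edgeR's quasi-likelihood test). For miR-26b-5p it was -0.24 (standard error 0.33, 95% interval -1.04 to 0.57, adjusted p = 0.992, edgeR's quasi-likelihood test). These intervals do not show that the ratios were equal, since they include sizeable changes in both directions. Of all tested miRNAs, 2.22% were called for this change. The sign for miR-26a-5p was not stable, being positive with the total mouse miRNA count (0.14). It was also positive when replicate 1 of cell shCTR (0.03), replicate 2 of cell shPCBP2 (0.26) or replicate 1 of EV shCTR (0.09) was left out. That for miR-26b-5p was positive without cell shPCBP2 replicate 2 (0.09).

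Each compartment was also compared on its own. In EVs, the level of miR-26a-5p was lower in shPCBP2 by a log2 difference of -0.47 (standard error 0.23, 95% interval -1.04 to 0.10), which did not pass the test (adjusted p = 0.376, edgeR's quasi-likelihood test). miR-26b-5p differed by -0.68 (standard error 0.24, 95% interval -1.25 to -0.11). Its unadjusted p was 0.0274 by edgeR, and after correction it was not called (adjusted p = 0.205 by edgeR, and 0.0512 by DESeq2). In this comparison, 7.22% of the tested miRNAs were called. For both guides, both EV shPCBP2 libraries were below both EV shCTR libraries relative to the spike-in, as for 42.2% of the tested miRNAs. By share, the groups overlapped for miR-26a-5p but not for miR-26b-5p, and 18.3% of the tested miRNAs had a lower share in both EV shPCBP2 libraries.

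In cells, miR-26a-5p differed by -0.40 (standard error 0.23, 95% interval -0.97 to 0.17) and miR-26b-5p by -0.44 (standard error 0.23, 95% interval -1.01 to 0.13) on the log2 scale in shPCBP2 against shCTR. Neither passed the test (adjusted p = 0.566 and 0.526, edgeR's quasi-likelihood test). In cells 0% of the tested miRNAs were called by edgeR, with 25 of 180 at an unadjusted p under 0.05, while DESeq2 called 18 and limma voom 16, none of them a miR-26 guide. Both cell shPCBP2 libraries were below both cell shCTR libraries for each guide, relative to the spike-in as for 66.7% of the tested miRNAs, and by share as for 52.2%. The size of the cell differences depended on cell shPCBP2 replicate 1, but their sign did not. Without this library the differences were -0.14 for miR-26a-5p and -0.17 for miR-26b-5p. Without cell shPCBP2 replicate 2 they were -0.73 and -0.77. Across the whole table, the median difference was -0.54 for EVs and -0.49 for cells, so the values of the guides were close to those of the table as a whole. With the total mouse miRNA count, the EV differences were 0.01 and -0.20, and the cell differences -0.13 and -0.17.

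**Figure D3:**
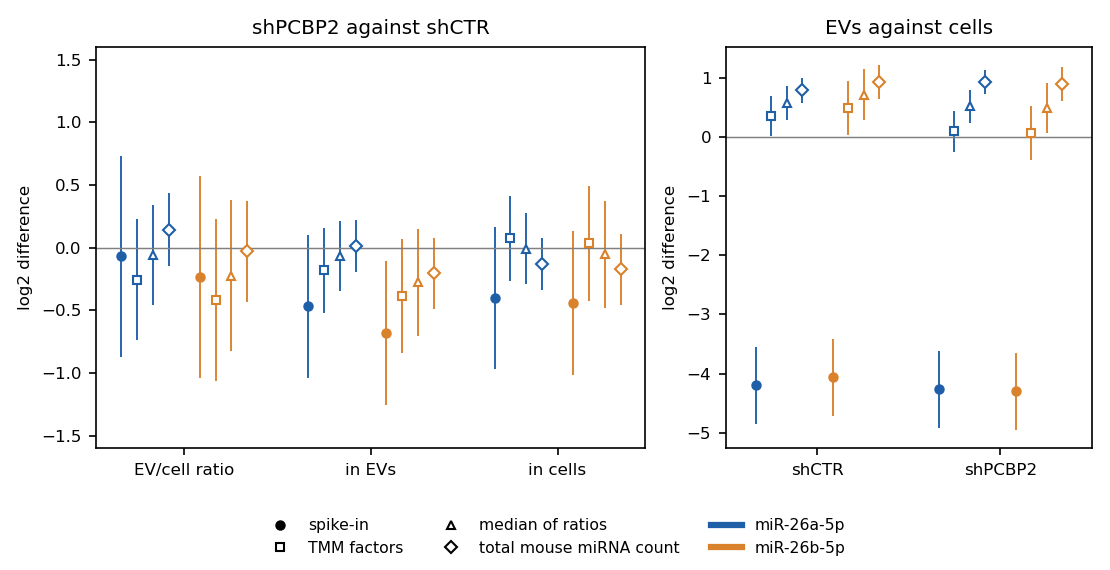
Fitted log2 differences with 95% intervals for miR-26a-5p (blue) and miR-26b-5p (orange) under 4 scalings (filled circles, spike-in; open symbols, the others). Left, shPCBP2 against shCTR for the EV/cell ratio, in EVs and in cells, where only the spike-in interval of miR-26b-5p in EVs does not reach 0. Right, EVs against cells, where values lie near -4 with the spike-in and above 0 with the other scalings.

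A ratio of 2 counts of the same library does not depend on the scaling, so it was used to compare the guides with each other and with other families. There were 0.689, 0.646, 0.645 and 0.649 miR-26b-5p counts per miR-26a-5p count in the cell libraries, in the order shCTR replicates 1 and 2, then shPCBP2 replicates 1 and 2. The EV libraries had 0.692, 0.780, 0.581 and 0.681 in the same order. EV libraries thus scattered on both sides of the narrow range of the cell libraries. The log2 ratio was -0.56 ± 0.17 (SD, n = 4) in EVs and -0.61 ± 0.05 in cells, a difference of 0.05 that is smaller than the spread of the EV libraries (p = 0.600, adjusted p = 0.600, two-sided exact permutation test of 4 against 4 libraries). A preference of EVs for either guide was not detectable over both shRNAs together. Within EVs, both shPCBP2 libraries had a lower ratio than both shCTR libraries, with a log2 difference of -0.22 (-0.67 against -0.45), while in cells the difference was -0.04. With 2 against 2 libraries, no two-sided p under 0.333 can be reached, and 17.9% of the other 179 tested miRNAs were lower against miR-26a-5p in the same way.

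Against the let-7 guides, 10 miRNAs that together formed the largest family compared here, the miR-26 guides were relatively more frequent in EVs. There were 0.0841 and 0.0848 miR-26 counts per let-7 count in cell shCTR, and 0.0693 and 0.0704 in cell shPCBP2. EV libraries held 0.204 and 0.222 for shCTR against 0.177 and 0.209 for shPCBP2. Every EV library was above every cell library, by 2.63-fold on average, an order that 38.6% of the 171 tested miRNAs outside the let-7 list had against let-7. The let-7 guides themselves made up 24.06% to 27.69% of the mouse miRNA counts in cells and 16.96% to 19.03% in EVs. The log2 ratio was -2.31 ± 0.14 (SD, n = 4) in EVs and -3.70 ± 0.16 in cells (p = 0.0286, the smallest that 4 against 4 libraries allow, adjusted p = 0.0857 over the 3 ratios, two-sided exact permutation test). After adjustment it did not pass 0.05, which it could not do at any size unless another ratio also reached this smallest p. Within shCTR the difference was 1.33 and within shPCBP2 it was 1.46 on the log2 scale. In cells, both shPCBP2 libraries were below both shCTR libraries in this ratio, as for 63.2% of those 171 miRNAs, with a difference of -0.27 on the log2 scale, which 2 against 2 libraries cannot test at 0.05.

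Against the 5 miR-30 guides, there were 9.35 and 10.3 miR-26 counts per miR-30 count in cell shCTR and 9.95 and 12.3 in cell shPCBP2. EVs had 15.8 and 20.8 for shCTR against 11.6 and 23.0 for shPCBP2. EV shPCBP2 replicate 1 fell within the range of the cell libraries, so the compartments overlapped. The log2 difference between EVs and cells was 0.72, with an SD of 0.44 among EV libraries and 0.17 among cell libraries (p = 0.0571, adjusted p = 0.0857, two-sided exact permutation test, n = 4 and 4). The EV counts of the miR-30 guides were low, at 826 to 1793 for the sum.

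**Figure D4:**
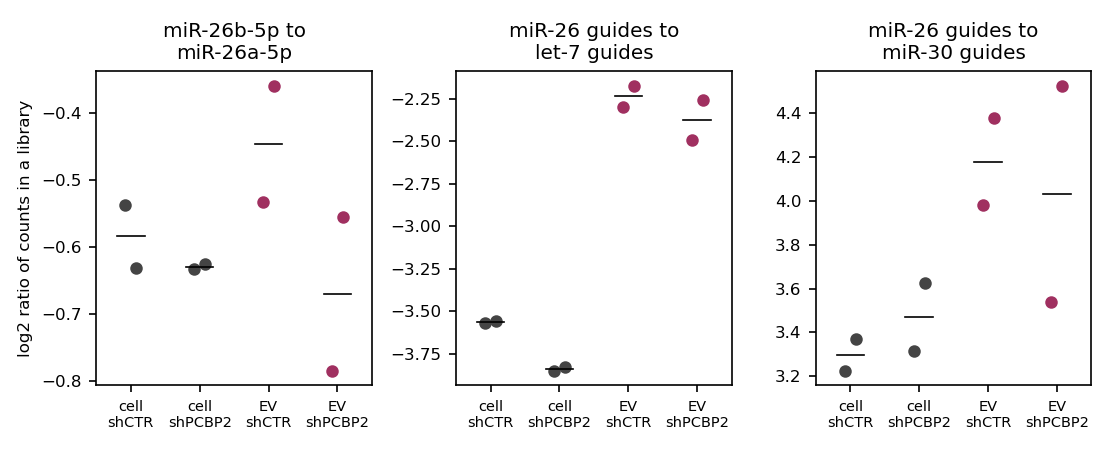
Log2 ratio of counts within each library (points) for miR-26b-5p to miR-26a-5p, miR-26 guides to let-7 guides and miR-26 guides to miR-30 guides, by group, with lines at the mean of 2 libraries. The y axes differ between panels and do not start at 0. EV libraries lie above all cell libraries for let-7, and overlap with them in the other panels.

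The miRNAs with a profile over the 8 libraries most like the mean of both guides were miR-25-3p, miR-361-5p, miR-16-5p, miR-151-5p and miR-15b-5p. The measure was the root mean square distance of centred log2 levels per spike-in read, over the 111 other miRNAs with at least 10 counts in every library. It was 0.15 for miR-25-3p, 0.23 for miR-361-5p and miR-16-5p, 0.24 for miR-151-5p and 0.26 for miR-15b-5p, against a median of 0.89. The distance between the guides themselves was 0.11, shorter than that of any other miRNA to their mean. The spike-in count of a library enters every profile alike and cancels in these distances, so they do not depend on the scaling. Much of each profile is the gap between compartments. The mean log2 level in EVs minus that in cells was -4.65 to -3.77 for the 5 named miRNAs.

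Passenger arms were rare next to the guides. miR-26b-3p had 98 and 143 counts in cell shCTR, and 79 and 66 in cell shPCBP2. miR-26a-1-3p had 20 and 73 counts in cell shCTR, and 36 and 68 in cell shPCBP2, and miR-26a-2-3p had 27 and 43, and 0 and 8. Over the cell libraries, passenger reads made up 0.106% of the Mir26b reads (386 of 365811) and 0.0495% of the Mir26a reads (275 of 555374). The share of miR-26b-3p ranged from 0.0681% to 0.143% between cell libraries, with no order by shRNA. Next to miR-26a-5p, the share of miR-26a-2-3p was 0.0177% and 0.0277% in cell shCTR against 0% and 0.00536% in cell shPCBP2. This order rests on low counts and was not tested. miR-26a-1-3p had no such order (0.0131% and 0.0471% against 0.0366% and 0.0455%).

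No passenger arm had a read in any EV library. The study lists miR-26b-3p among miRNAs expressed in EVs and measured its EV/cell ratio by RT-qPCR, a different assay. It reports that PCBP2 silencing released the loading of these miRNAs into EVs. For Mir26b, 0 of 35110 guide and passenger reads over the EV libraries allows a share of up to 0.00854%, and for Mir26a, 0 of 51569 allows up to 0.00582%. These limits count 3 reads for a count of 0, and they hold only if no low counts were removed from the EV libraries. At the share of the cell libraries of the same shRNA, the EV libraries would have held 6.93 to 12.4 reads of miR-26b-3p each and 5.12 to 8.13 reads of the miR-26a passengers each. Counts of this size are scarce in EVs for all miRNAs, however, as counts between 1 and 40 made up 3.68% of those above 0 in EVs (28 of 761) and 42.3% in cells (921 of 2179). A minimum count for EV libraries is not given in the sources used here. If counts of this size were removed, a 0 could stand for such a count, and the data would not separate EVs from cells in the passenger share. The part of this gap in low EV counts in the absence of passenger reads was not tested.

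**Figure D5:**
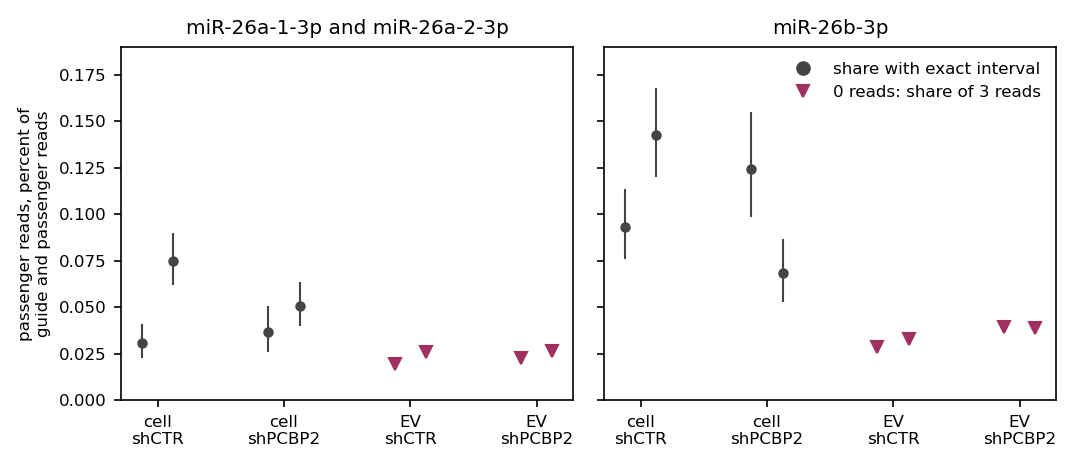
Passenger reads as a percent of guide and passenger reads in each library, for the miR-26a passengers together (left) and miR-26b-3p (right). Points are cell libraries with exact 95% binomial intervals, and triangles are EV libraries with 0 reads, placed at the share that 3 reads would give, 0.0196% to 0.0265% for miR-26a and 0.0283% to 0.0391% for miR-26b-3p. The upper ends of the exact intervals of the EV libraries are higher, up to 0.0326% for miR-26a, above the lowest cell point of 0.0308%, and up to 0.0481% for miR-26b-3p, below its lowest cell point of 0.0681%.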

How the data were processed

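Small RNA libraries of 3A cells and their EVs were analysed, 2 per condition in 4 conditions. Reads were trimmed, filtered and, for the forward mate, placed on miRBase hairpins and the spike-in by mirPRo, which runs NovoAlign. The authors deposited the resulting raw read counts for each mature miRNA. The deposited counts are not normalized (the study scaled by the spike-in in its own test). Collapsing by molecular identifiers is not given in the sources used here, and intervals cover counting error only. The miRNAs described and the lists were chosen with earlier results of these data known. Replicates are numbered as in the sample titles, and the sample descriptions number the shPCBP2 libraries differently. The methods call the replicates biological, and p-values rest on the spread between libraries. In the main edgeR fit, this spread was estimated over all 4 conditions together and moderated over the tested miRNAs. The permutation tests pooled both shRNAs within a compartment, so their spread includes differences between shCTR and shPCBP2.

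Counts were tested with edgeR 4.0.16 (quasi-likelihood test, prior count 0.125) in R 4.3.3, with library sizes equal to the cel-miR-39-3p count, a mean for each group, and Benjamini-Hochberg adjustment over the 180 tested miRNAs of a contrast (threshold 0.05). The study used DESeq2, which was run as an alternative (1.42.0), together with limma voom 3.58.1, other scalings, other filters, robust estimation, a replicate block, only the 4 libraries compared, and each library left out in turn. Standard errors and intervals were obtained from the F statistic. Ratios within libraries were compared with exact permutation tests in scipy 1.17.1. The named miRNAs are both guides, their passenger arms, the let-7 and miR-30 guides as sums, and the 5 miRNAs with the most similar profile. The edgeR fit was first checked with simulated counts. Their dispersions were below that of the data (common dispersion 0.693), and the planted changes were larger than the shRNA differences of the guides. The check therefore does not show how the fit behaves at the spread of these data. Sequences came from RefSeq (GRCm38.p6), with a sequence for 1679 of 1978 mouse miRNAs, and host introns from GENCODE M21 (GRCm38). These libraries hold no measure of PCBP2 itself, and the study reports its silencing in 3A shPCBP2 cells by RT-qPCR and western blot.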

Additional observations from a re-analysis of the deposited data

Results flagged for a closer look

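In the 4 cell libraries, the log2 ratio of miR-26b-5p to miR-26a-5p was -0.54 in cell shCTR replicate 1 and between -0.63 and -0.62 in the other cell libraries. The gap to the nearest library was 0.912 of the range of the group, above the 95% critical value of Dixon's test for 4 libraries. Of 10 such groups of 4 libraries examined, this was the only one above it, and chance alone can give such a gap when several groups are examined.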

How the results depend on the processing

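Relative to the spike-in, both guides kept a lower level in EVs and an adjusted p under 0.05 under every filter, test and left-out library. The other scalings turned the EV/cell ratio around. In shCTR, the log2 ratio of miR-26a-5p was 0.35 (TMM), 0.57 (median of ratios) and 0.78 (total mouse miRNA count), and that of miR-26b-5p was 0.49, 0.71 and 0.92. In shPCBP2, these values were 0.091, 0.51 and 0.93 for miR-26a-5p, and 0.068, 0.49 and 0.89 for miR-26b-5p. With TMM factors none of these 4 values passed the test, and with median-of-ratios size factors miR-26b-5p in shPCBP2 did not (adjusted p = 0.0622, edgeR).

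For the change of the EV/cell ratio, miR-26a-5p turned positive with the total mouse miRNA count (0.14), and leaving out a library gave -0.33 to 0.26 for miR-26a-5p and -0.50 to 0.094 for miR-26b-5p. In EVs, the difference of miR-26a-5p became 0.013 with the total mouse miRNA count, and in cells TMM factors gave 0.076 for miR-26a-5p and 0.033 for miR-26b-5p. No setting brought a difference between shPCBP2 and shCTR of either guide to an adjusted p under 0.05, and the lowest was 0.0512, for miR-26b-5p in EVs with DESeq2.

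The log2 ratio of miR-26b-5p to miR-26a-5p in EVs against cells ranged from -0.017 to 0.12 with a library left out, and was -0.041 within shPCBP2 and 0.14 within shCTR. With 1 library fewer, these permutation tests cannot give an unadjusted p under 0.05.

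Titles of different groups share replicate numbers. The deviations of same-numbered libraries from their group means correlated at -0.51 between the cell groups and at -0.09 to 0.04 between the other groups over the 180 miRNAs, so the numbers were not taken as pairs. With the replicate block, the change of the EV/cell ratio was -0.07 for miR-26a-5p and -0.23 for miR-26b-5p, no call on either guide changed, and the number of miRNAs called fell from 4 to 1 for the EV/cell change and from 13 to 2 in EVs. With crossed numbers in cell shPCBP2, a block chosen after seeing the data, 0 and 6 were called. Over all settings, the number of miRNAs called ranged from 0 to 16 for the EV/cell change (16 with TMM factors), from 1 to 27 in EVs (27 with DESeq2), from 0 to 39 in cells (39 with only the 4 cell libraries), from 75 to 294 for EVs against cells in shCTR and from 86 to 294 in shPCBP2 (294 of 800 with no filter).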
